A study of Mus musculus with 12 samples.

Results

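Mouse bone marrow-derived macrophages given the peptide hormone hepcidin were compared here with macrophages given phosphate-buffered saline (PBS), 3 h after the addition. The comparison used 6 of the 12 arrays of the series, 3 with hepcidin and 3 with PBS, chosen by their titles, and covered all 24675 genes with a name. The cells came from marrow of wild-type mice aged 8 to 10 weeks, were grown for 7 days in medium conditioned by L cells, which supplies the growth factor M-CSF, and were moved to DMEM alone for 1 h before hepcidin or PBS. The dose of hepcidin is uncertain: the growth protocol names 1 µg/ml, whereas the treatment protocol names 10 µg/ml and mentions the 1 h time alone. Whether replicate arrays stand for separate mice or dishes is not stated in the labels, and the p-values then cover the spread of these samples alone, which may be technical. In such bulk RNA, a change in the number of cells of a type and a change in RNA per cell cannot be told apart.

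Hepcidin, made mainly by the liver, controls iron export by binding ferroportin, the iron exporter encoded by Slc40a1, which is then degraded. Macrophages recycle the iron of old red cells and release it through ferroportin. They also sense microbial products through receptors such as TLR4, which signal through NF-kB and MAP kinases to genes for chemokines, cytokines and feedback inhibitors.

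The values are log2 signals of whole-transcript arrays, so that a difference of 1 is a doubling. The medians of the 3 h arrays lay between 4.84 and 4.93, and arrays of a group correlated across genes at r of 0.994 to 0.997. The number of arrays limits the precision: the median standard error of a log2 difference was 0.10. Of 10 macrophage markers, 8 were measured, all at a level of 6 or more, and their mean lay between 10.82 and 10.95 on the PBS arrays and between 10.80 and 10.95 on the hepcidin arrays; 2 of them rose (Cd14 and Spi1) and 1 fell (Mertk). The lists for neutrophils, dendritic cells, lymphocytes, erythroid cells and mast cells had 0 members at a level of 6 or more and 0 past the threshold. In the fibroblast list, Acta2 (7.49) was at that level, and 0 of 7 members passed.

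Hepcidin was followed by 692 genes higher and 624 lower at 3 h. This is 5.33% of all genes tested (2.8% higher, 2.53% lower) at an adjusted p under 0.05 by limma with Benjamini-Hochberg adjustment over all genes, the threshold behind every "rose" and "fell" here. Both words compare hepcidin with PBS at the same time and do not describe a course from 1 h to 3 h. The rises were larger than the falls: 130 rises and 35 falls reached 2-fold, and the median change was 0.54 on the log2 scale (1.45-fold) for the genes that rose and -0.46 (1.38-fold) for those that fell. At 1.5-fold the counts were 305 and 175. The groups did not overlap in 21.7% of all genes, and in 1314 of the 1316 that passed. Leaving out 1 array of 3 h gave 483 to 689 rises and 354 to 551 falls. The falls numbered 358 without PBS array 2, 354 without PBS array 3 and 395 without hepcidin array 3. With any single 3 h array left out, 702 of the 1316 genes passed in all 6 fits, 409 of them higher and 293 lower.

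**Figure D1:**
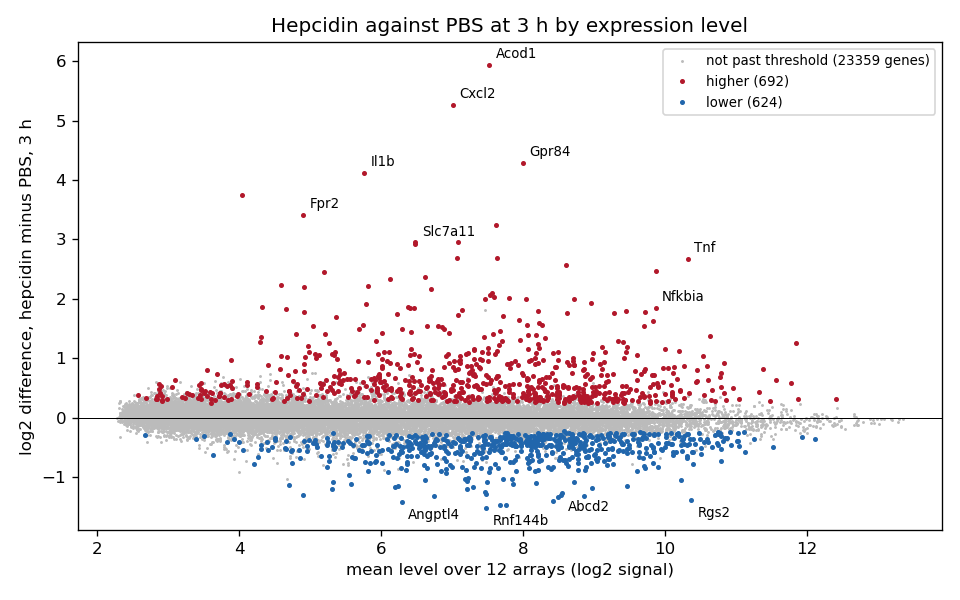
Log2 difference between hepcidin and PBS at 3 h (y axis) against the mean log2 signal over all 12 arrays (x axis), with 1 point per gene. Red marks the 692 genes that rose, blue the 624 that fell, and grey the rest. Rises reach 5.94 (Acod1) and falls reach -1.52 (Rnf144b).

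Rises and falls were spread differently over expression level. Among the 8133 genes with a mean log2 signal under 4, 53 rose and 7 fell, which is 0.738% of them. At 4 to 6, 118 of 7343 rose and 76 fell. At 6 to 8, 245 of 4865 rose and 227 fell. At 8 to 10, 230 of 3508 rose and 245 fell. Among the 826 genes at 10 and above, 69 fell and 46 rose, so that 13.9% passed. Rises therefore made up 88.3% of the genes that passed in the dimmest bin, 60.8% at 4 to 6, 51.9% at 6 to 8, 48.4% at 8 to 10 and 40% in the brightest. With 1 array of 3 h left out, the share of rises was 78% to 89.1% in the dimmest bin, from 19 to 73 rises and 3 to 9 falls, 59.7% to 68.5% at 4 to 6, 47.9% to 59% at 6 to 8, 43.7% to 52.9% at 8 to 10 and 38% to 52.6% in the brightest. The order of rises and falls thus turned in the upper bins. At 6 to 8 it was 186 rises against 202 falls without hepcidin array 2. At 8 to 10 it was 165 against 147 without PBS array 2, 162 against 144 without PBS array 3 and 180 against 161 without hepcidin array 3. At 10 and above it was 41 against 37 without PBS array 3, and falls there numbered 39 without PBS array 2 and 42 without hepcidin array 3. The signal of a probe set also depends on its probes, and the mean includes the hepcidin arrays, so bins were drawn again by the PBS arrays of 1 h, which take no part in the difference. Rises were then 91.3% of the genes that passed under 4 and 30.2% at 10 and above. The median SE was 0.10 under 4, 0.11 at 4 to 6 and 0.07 at 10 and above. Of the 53 rises under 4, 0 reached 2-fold, but a dim gene with a large rise leaves that bin through its hepcidin arrays. In the bins by the PBS arrays of 1 h, 8 of 63 rises under 4 reached 2-fold. The dimmest bin lies under 4.67, the 95th percentile of the olfactory, vomeronasal and taste receptor genes with PBS described below. A signal near background has little room to fall, and bins drawn by other arrays do not remove this. The parts of the SE and of background in these shares were not tested.

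**Figure D2:**
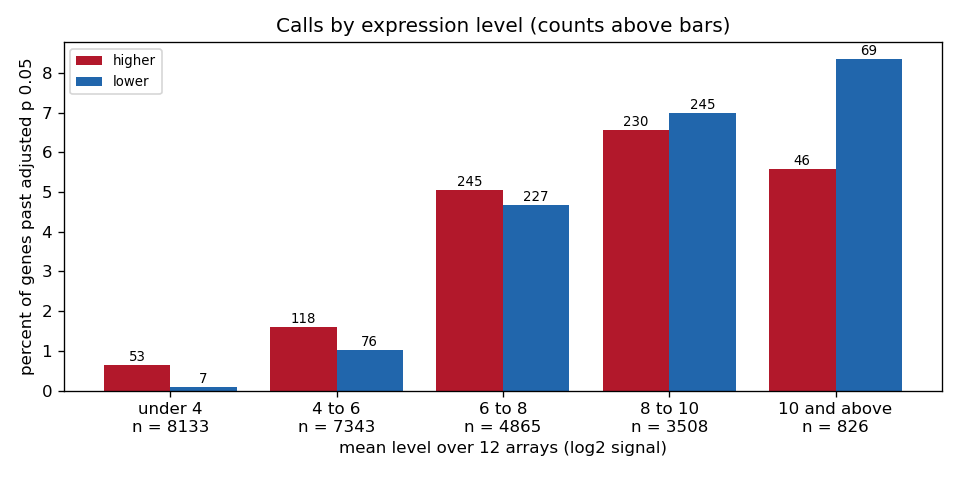
Percent of genes that rose (red) or fell (blue) with hepcidin at 3 h, in 5 bins of the mean log2 signal over 12 arrays; numbers above bars are genes. Rises outnumber falls 53 to 7 in the dimmest bin, and falls number 69 against 46 rises in the brightest, where leaving out PBS array 3 turns the order.

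The median PBS signal was 7.14 for the genes that rose, 8.19 for those that fell and 4.87 for all genes. Of the genes that rose, 105 had a PBS mean under 4.87, the median of all genes, and 41 of them stood above it with hepcidin. Il1b, Cxcl2, Cxcl3 and Fpr2, described below, were among the dim ones. The files hold no detection calls, and a signal this low is not shown to lie above background. The 1377 olfactory, vomeronasal and taste receptor genes, taken as a view of background, had a median of 2.96 on the PBS arrays of 3 h and a 95th percentile of 4.67 (4.72 with hepcidin). Among genes given with values, Cxcl2, Cxcl3, Il1b, Fpr2, Gpr18, Olr1, Ifi205, Gbp5, Flrt3, Pde4b, Cp and Mir146 had a PBS mean under 4.67, and Dkk2 and Irf4 a hepcidin mean under 4.72. A fold change of these genes is given only as "at least" the hepcidin mean against 4.67, and their log2 differences are differences of signal. Of the genes that fell, 38 ended under that median, and 18 of them had been above it with PBS.

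At the top of the scale, among genes with a mean of 10 or more, the chemokine gene Ccl3 rose from 11.20, 11.33 and 11.32 on the PBS arrays to 12.47, 12.63 and 12.55 (2.4-fold). Slc31a2, which encodes a copper transporter of the CTR family, rose from 10.20, 10.14 and 10.24 to 11.47, 11.63 and 11.62 (2.6-fold). In the other direction Rgs2, an inhibitor of G protein signalling, read 10.58, 10.92 and 10.94 with PBS and 9.38, 9.59 and 9.30 with hepcidin, 2.63-fold lower. Rasgrp3, which loads Ras with GTP, was 2.07-fold lower, and Zfp36l2, P2ry6 and the sialyltransferase gene St8sia4 fell by 0.61, 0.69 and 0.78 on the log2 scale. Actb, the cytoskeletal actin gene, lay at 12.28, 12.26 and 12.27 and 12.29, 12.20 and 12.42, with overlapping groups.

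By class, the share of genes that passed was largest for signalling regulators and receptors. Of 1122 signalling regulators 15.3% passed (81 higher, 91 lower), of 889 receptors 12.1% (64 and 44), of 277 secreted ligands 10.5% (24 and 5), of 1095 transcription factors 7.49% (48 and 34), of 2524 enzymes 6.66% (89 and 79) and of 973 transporters and channels 6.17% (33 and 27). The same share over all genes was 5.33%, and the 1377 olfactory, vomeronasal and taste receptor genes gave 0.726% (8 and 2, and 20 and 4 without hepcidin array 1). Classes differ in how many members the macrophages express, and over genes with a mean of 6 or more, where 11.5% of 9199 passed, the shares were 33.7% of 270 receptors, 31% of 58 ligands, 21% of 728 signalling regulators, 15.3% of 432 transcription factors, 14.1% of 334 transporters and 10.6% of 1383 enzymes. A gene that rose can reach that mean through its hepcidin arrays, so these shares describe and do not test the classes. The median log2 difference over all members lay between 0.00 (signalling regulators) and 0.04 (ligands), against 0.02 for all genes. In every class most members did not pass. Some counts of a class rested on 1 array: without PBS array 3 the falls numbered 21 for transcription factors, 50 for enzymes, 17 for transporters and 51 for signalling regulators, and the rises numbered 15 for ligands. The falls of signalling regulators numbered 51 without PBS array 2 and 57 without hepcidin array 3.

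**Figure D3:**
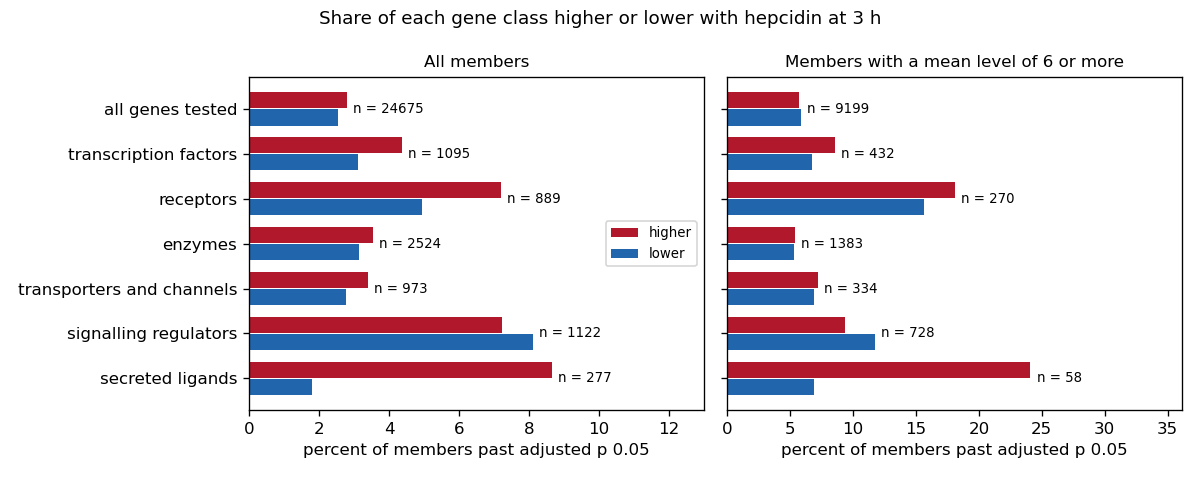
Percent of each gene class that rose (red) or fell (blue) with hepcidin at 3 h, over all members (left) and over members with a mean log2 signal of 6 or more (right); n is the number of members. Ligands lie furthest to the rising side, with 24 higher and 5 lower, and signalling regulators have more falls (91) than rises (81).

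Of 277 secreted ligands, 24 rose, 5 fell and 248 did not pass, and the largest change was that of a chemokine, a protein that draws leukocytes into tissue. Of 35 chemokine genes, 10 rose and 0 fell. Cxcl2 (Entrez gene 20310), a neutrophil attractant, had log2 signals of 3.88, 4.46 and 4.28 on the PBS arrays and 9.05, 9.48 and 9.88 on the hepcidin arrays. The 3 hepcidin arrays thus lay above every PBS array, and the difference was 5.27 ± 0.20 (SE, 3 arrays a group), at least 27.8-fold, at an adjusted p of 2.67e-08. Its neighbour in function, Cxcl3, was among the dimmest genes with PBS, at 2.83, 2.82 and 2.69, and reached 5.75, 6.87 and 6.95 with hepcidin (at least 3.61-fold, adjusted p 7.58e-06). Hepcidin array 1 was the lowest of the 3 for both genes. Cxcl10, a T cell attractant, went from 6.00, 6.46 and 5.55 to 8.96, 9.22 and 8.68 (7.73-fold), and Cxcl1 and Ccl4 were higher by 2.37 and 1.79 on the log2 scale. Cxcl16 rose 2.05-fold. With 1 array left out, 7 to 9 chemokine genes rose and 0 fell.

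Among cytokines, Il1b (Entrez gene 16176), the pyrogenic interleukin 1 beta, was near the bottom of the scale with PBS (4.34, 3.96 and 4.05) and well above it with hepcidin (8.10, 8.13 and 8.47). The groups lay far apart, by 4.12 ± 0.13 (at least 11.8-fold, adjusted p 5.52e-09). Tnf, the other classical inflammatory cytokine, was already bright with PBS, at 8.84, 9.05 and 9.02, and read 11.47, 11.72 and 11.74 with hepcidin, a 6.38-fold rise. Csf1, which encodes M-CSF, the growth factor that the cells had been moved away from, rose by 1.54. The ligands that fell were of other kinds. Angptl4, an inhibitor of lipoprotein lipase, read 6.47, 6.98 and 6.59 with PBS and 5.08, 5.46 and 5.22 with hepcidin, 2.69-fold lower (adjusted p 1.04e-04). Hgf, the hepatocyte growth factor, fell from 7.48, 7.39 and 7.60 to 6.87, 6.86 and 6.81, Dkk2, a Wnt inhibitor, fell by 0.76, and Il15, which sustains natural killer cells, by 0.55. Kitl, the ligand of the Kit receptor, was lower by 0.52 at an adjusted p of 0.0142, and 0.0515 without hepcidin array 2. Vegfc, a lymphatic growth factor, rose 1.62-fold.

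The bases around the start of the tested genes were read from RefSeq, because NF-kB is known to act on genes of chemokines and cytokines. What moved the genes was not tested. Letters fitting a form of the NF-kB site, GGGA, any 2 bases and then TTCC, were sought on both strands in the window from 250 bases before to 50 bases after the start, in the first window that RefSeq lists for a gene. Of 18380 tested genes with a window, 1.42% held a match, and 1.43% of the 7280 with a mean level of 6 or more did. The share was 3.22% (18 of 559) for genes that rose, 8.57% (9 of 105) for those that rose at least 2-fold, 0.427% (2 of 468) for those that fell and 0 of 25 for those that fell at least 2-fold. Of the 66 named genes that rose, 52 had a window and 5 of these a match. Tnf, Il1b, Icam1 and Tnfaip3 were not among the 5. A gene without a window could not match, and whether these genes had one is not stated here. The 250 bases before the start of those 5 are shown, 5′ to 3′ along the gene on GRCm38.p6, with the matching letters in capitals:
Cxcl2, chr5:90903649-90903898, strand plus: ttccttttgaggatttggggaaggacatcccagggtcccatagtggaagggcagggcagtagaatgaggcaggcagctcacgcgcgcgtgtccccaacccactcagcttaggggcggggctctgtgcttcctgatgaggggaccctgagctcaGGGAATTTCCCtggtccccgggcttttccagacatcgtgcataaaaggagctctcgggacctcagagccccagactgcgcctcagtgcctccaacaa
Cxcl3, chr5:90785851-90786100, strand plus: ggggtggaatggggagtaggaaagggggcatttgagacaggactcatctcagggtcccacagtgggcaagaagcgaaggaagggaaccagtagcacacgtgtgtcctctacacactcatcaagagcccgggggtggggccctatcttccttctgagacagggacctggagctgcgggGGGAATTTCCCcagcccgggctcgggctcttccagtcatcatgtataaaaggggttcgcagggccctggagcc
Cxcl10, chr5:92348890-92349139, strand minus: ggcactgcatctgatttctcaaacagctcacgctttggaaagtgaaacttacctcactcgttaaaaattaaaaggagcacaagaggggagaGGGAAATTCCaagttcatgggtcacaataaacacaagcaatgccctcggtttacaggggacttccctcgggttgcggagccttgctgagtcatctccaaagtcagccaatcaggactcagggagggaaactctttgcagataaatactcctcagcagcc
Gbp5, chr3:142496684-142496933, strand plus: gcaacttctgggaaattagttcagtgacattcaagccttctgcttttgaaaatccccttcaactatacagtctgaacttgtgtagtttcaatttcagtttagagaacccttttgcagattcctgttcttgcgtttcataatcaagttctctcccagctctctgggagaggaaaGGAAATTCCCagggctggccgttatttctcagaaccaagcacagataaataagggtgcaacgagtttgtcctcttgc
Nfkbia, chr12:55492648-55492897, strand minus: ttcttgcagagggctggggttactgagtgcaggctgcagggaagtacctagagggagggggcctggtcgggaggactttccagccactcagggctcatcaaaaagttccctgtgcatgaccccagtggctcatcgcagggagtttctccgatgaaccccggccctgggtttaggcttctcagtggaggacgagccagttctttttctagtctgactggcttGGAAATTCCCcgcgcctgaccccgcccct
In Cxcl2 and Cxcl3 the capitals are 11 bases that match on both strands with an overlap, beginning 97 and 73 bases before the start. The match begins 159 bases before the start in Cxcl10, 77 in Gbp5 and 29 in Nfkbia. Such a match is a description of letters and not a measured binding site. The other motifs were sought in the same way. TGANTCA (AP-1) was in 7.42% of all windows and 4.7% of those at a level of 6 or more, in 8.05% for genes that rose and 6.41% for those that fell, and in 11.4% and 8% for rises and falls of at least 2-fold. TTNNGCAA (C/EBP) was in 10.1% and 7.98%, in 9.66% and 9.62%, and in 10.5% and 12%, in the same order. GTAAACA (FOXO) was in 3.09% and 2.45%, in 2.33% and 2.35%, and in 2.86% and 0 of 25. TGACNNNGC (NRF2) was in 13.3% and 15%, in 15.7% and 15.2%, and in 19% and 20%. The last value of each motif rests on 25 genes, with 2 matches for AP-1, 3 for C/EBP and 5 for NRF2.

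Receptors moved in both directions, with 64 higher and 44 lower. Gpr84 (Entrez gene 80910), a receptor for medium-chain fatty acids, read 6.31, 6.08 and 6.23 on the PBS arrays and 10.40, 10.48 and 10.63 on the hepcidin arrays. It was 19.6-fold higher (4.29 ± 0.13, adjusted p 3.80e-09), the largest rise of any receptor. Fpr2, which senses formylated bacterial peptides, rose from 3.50, 4.18 and 3.74 to 6.78, 7.71 and 7.17 (at least 5.86-fold). The metabolite and lipid receptors Hcar2, Gpr18 and Gpr132 and the chemerin-binding Ccrl2 were higher by 2.21, 2.20, 1.13 and 1.55. Other G protein-coupled receptors went down. P2ry1, a receptor for ADP, fell from 8.12, 8.18 and 8.06 to 6.59, 6.79 and 6.58 (2.76-fold, adjusted p 2.48e-07). Gpr183, which guides cells by oxysterols, fell from 9.18, 9.14 and 8.98 to 7.98, 8.03 and 7.49 (2.41-fold). Falls were also measured for the lysophosphatidic acid receptor Lpar6 (2.29-fold), the sphingosine phosphate receptor S1pr1 (-1.10 on the log2 scale), the cannabinoid receptor Cnr2 (-0.88) and the chemokine receptor Cxcr4 (-0.84). Over the family of 344, 20 rose and 14 fell.

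Of 119 pattern recognition and scavenger receptors, 11 rose and 11 fell. Clec4e, the lectin Mincle, rose from 9.07, 8.94 and 8.87 to 11.48, 11.41 and 11.37 (5.52-fold). The inflammasome sensor Nlrp3 was higher by 2.09 and the oxidized lipoprotein receptor Olr1 by 1.78. Tlr2 and Tlr1, which pair to sense bacterial lipopeptides, were higher by 2.06 and 1.09. Cd14, the co-receptor that hands lipopolysaccharide to TLR4, rose from 10.17, 10.27 and 10.35 to 11.11, 11.09 and 10.99 (1.74-fold). Tlr4 itself fell from 10.13, 10.18 and 10.16 to 9.65, 9.74 and 9.82 (1.34-fold, adjusted p 0.0015), so that both genes had groups apart but in opposite directions. Ly96, which encodes the TLR4 partner MD-2, was lower by 0.36, and the nucleic acid sensors Tlr7 and Tlr8 were lower by 0.44 and 0.46. The largest fall of these receptors was that of Nlrp1b, another inflammasome sensor, from 7.92, 7.76 and 7.61 to 6.77, 6.51 and 6.42 (2.3-fold).

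In the immunoreceptors and costimulatory molecules, 15 of 127 rose and 7 fell (4 fell without PBS array 3). Cd69, a surface protein of early activation, rose from 5.10, 5.14 and 4.87 to 7.58, 8.27 and 8.02 (7.58-fold). Tarm1, an activating receptor of myeloid cells, rose from 6.66, 6.23 and 6.25 to 9.36, 8.99 and 8.87 (6.45-fold). Costimulatory and inhibitory ligands also rose, with 2.00 for Icosl, 1.36 for Cd83 and 0.89 for Cd274, which encodes PD-L1. Cd28 fell from 10.13, 10.01 and 9.83 to 9.09, 9.18 and 9.00, and Cd200r1, an inhibitory receptor, was lower by 0.73. Among 119 integrins and adhesion molecules, 7 rose and 2 fell, a share of 7.56% beside the 5.33% over all genes. Icam1, a ligand of leukocyte integrins, rose from 7.79, 7.59 and 7.47 to 10.06, 10.26 and 10.21 (5.9-fold), and the integrin chain Itga6 fell by 0.51.

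Of 180 cytokine and growth factor receptors, 11 rose and 10 fell (6 to 10 and 6 to 9 with 1 array left out, 7 against 9 without PBS array 1). The death receptor Fas rose from 6.97, 6.86 and 6.73 to 9.62, 9.52 and 9.50 (6.46-fold), Tnfrsf1b, a TNF receptor, rose 2.17-fold, and Cd40 was higher by 1.16. Lifr, the receptor for leukaemia inhibitory factor, fell from 8.08, 8.31 and 7.85 to 6.98, 7.03 and 6.72 (2.25-fold). At 1 h the Lifr means were 7.18 with PBS and 7.05 with hepcidin. The 3 h means were 8.08 and 6.91, so the PBS level differed more between the times. Il6st, the chain that Lifr shares with other receptors, and Il6ra were lower by 0.54 and 0.42. Mertk, which takes up dying cells, was lower by 1.08. Csf1r, the M-CSF receptor, read 11.56, 11.45 and 11.54 with PBS and 11.69, 11.76 and 11.64 with hepcidin, a difference of 0.18 that did not pass (adjusted p 0.168, and 0.0293 with a trended and robust prior).

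**Figure D4:**
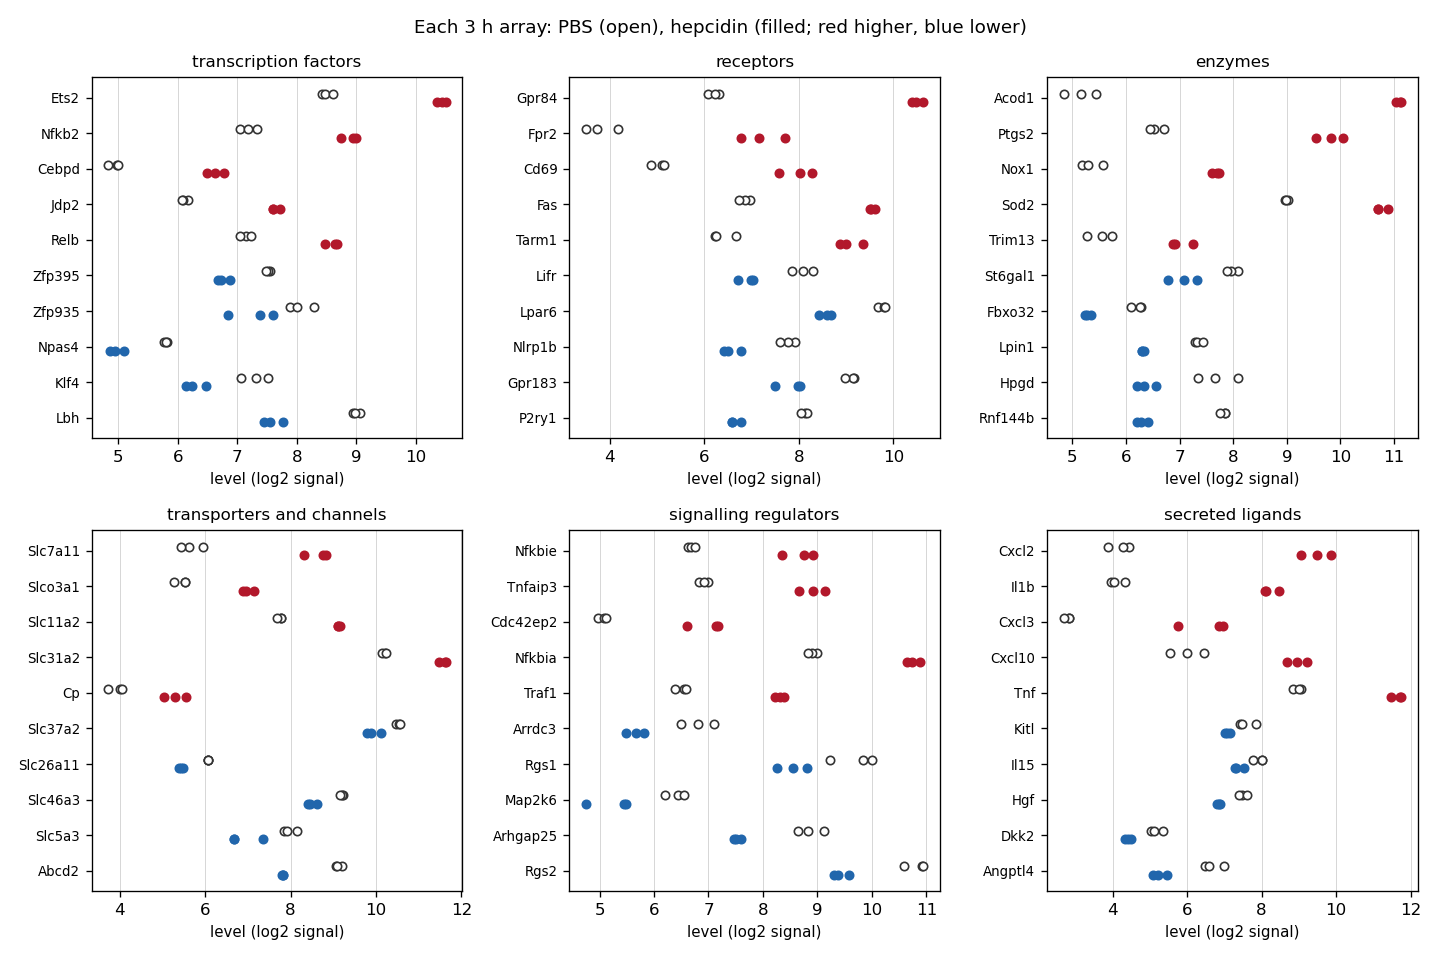
Log2 signal on each 3 h array for 60 genes, in each of 6 classes the 5 largest rises (red, hepcidin) and the 5 largest falls (blue, hepcidin) beside PBS (open circles); each circle is 1 array. The groups do not overlap for any of these genes, by the rule that chose them, and the rises span wider gaps than the falls.

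Of 57 genes for proteins that relay and restrain NF-kB and TLR signals, 17 rose, 1 fell and 39 did not pass. The median log2 difference over all 57 was 0.13, against 0.02 over all genes, and with 1 array left out 17 to 18 rose and 0 to 2 fell. Nfkbia (Entrez gene 18035), which encodes the inhibitor that holds NF-kB in the cytoplasm, read 8.99, 8.91 and 8.83 with PBS and 10.64, 10.73 and 10.88 with hepcidin (3.59-fold, adjusted p 3.49e-08). The related inhibitor Nfkbie rose from 6.62, 6.68 and 6.75 to 8.35, 8.75 and 8.92, and Tnfaip3, the A20 enzyme that removes ubiquitin from the pathway, from 6.99, 6.83 and 6.93 to 8.66, 8.91 and 9.13. These changes were of like size, 3.98-fold and 3.97-fold. The adaptor Traf1 rose 3.49-fold, and Nfkbiz, Tnip1, Ikbke and Bcl3 were higher by 1.64, 1.60, 1.55 and 1.39. Irak1bp1, the gene that fell, was lower by 0.39 at an adjusted p of 0.0262. It missed the threshold in each fit without a 3 h array other than hepcidin array 2, at an adjusted p of up to 0.0853.

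Of 24 JAK-STAT feedback and kinase genes 5 rose, 1 fell and 18 did not pass. The kinase gene Pim1 rose from 7.54, 7.50 and 7.35 to 8.89, 9.12 and 9.06 (2.95-fold), and Socs3, an inhibitor of cytokine receptors, was higher by 1.42. Socs6 was lower by 0.46 at an adjusted p of 0.05, and missed the threshold without any 3 h array other than hepcidin array 2, at up to 0.185. In the MAP kinase cascade 7 of 97 rose and 8 fell (3 to 9 and 6 to 8 with 1 array left out, 9 against 7 without hepcidin array 1). Mapkapk2, a kinase below p38, rose from 9.91, 9.92 and 9.83 to 10.80, 10.70 and 10.65, and the phosphatase gene Dusp16 was higher by 0.81. Map2k6, a kinase that activates p38, fell from 6.45, 6.20 and 6.54 to 5.45, 5.49 and 4.75 (2.25-fold), and the phosphatase gene Dusp7 was lower by 0.84.

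Small GTPases and their regulators, which steer the cytoskeleton and vesicle traffic, gave the most falls of any family by count, though not by share. Of 349 genes, 39 fell and 18 rose, and with 1 array left out 22 to 33 fell and 13 to 19 rose. The share that fell was 11.2%, beside 11.9% of mRNA decay and stress regulators and 2.53% of all genes. At a mean of 6 or more it was 15.3%, beside 22.2% of G protein-coupled receptors and 5.88% of all genes at that level. The falls numbered 23 without PBS array 2, 22 without PBS array 3 and 24 without hepcidin array 3. Arhgap25, which switches Rac off, fell from 8.64, 8.82 and 9.12 to 7.47, 7.61 and 7.51 (2.52-fold). Rasgrp3 fell from 10.61, 10.66 and 10.70 to 9.64, 9.63 and 9.55, with an SE of 0.06. Rab3il1, Rassf3 and Rasa3 were lower by 1.11, 0.85 and 0.84. In the other direction Cdc42ep2, an effector of Cdc42, rose from 4.97, 5.08 and 5.12 to 6.60, 7.14 and 7.18 (3.77-fold), and Ralgds was higher by 1.40. G protein and cyclic nucleotide signalling gave 5 rises and 10 falls among 144. Pde4b, which breaks down cyclic AMP, rose at least 1.9-fold, while Rgs1, a relative of Rgs2, fell from 9.23, 9.83 and 10.00 to 8.26, 8.56 and 8.80 (2.22-fold).

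Of 262 other kinases and phosphoinositide enzymes, 16 rose and 23 fell. With 1 array left out, 10 to 15 rose and 10 to 18 fell: falls numbered 11 without PBS array 2 or hepcidin array 3, and without PBS array 3 the order turned, with 13 rises and 10 falls. Trib1, a pseudokinase that directs protein breakdown, rose 2.05-fold, Syk was higher by 0.74, and Nek6 fell from 7.55, 7.63 and 7.64 to 6.83, 6.59 and 6.86. Of 147 protein phosphatase genes, 6 rose and 4 fell (3 to 5 and 0 to 3 with 1 array left out). That is a share of 6.8%, beside 5.33% over all genes. Ppp2r3a rose 1.58-fold, and Eya4 was lower by 0.57 but missed the threshold without any 3 h array other than hepcidin array 2, at an adjusted p of up to 0.162. Among 42 regulators of mRNA decay and stress, 7 rose and 5 fell. Zc3h12c, a relative of the mRNA-cutting regnase 1, rose from 7.95, 8.04 and 7.99 to 9.65, 9.75 and 9.85 (3.39-fold), and Zc3h12a, which encodes regnase 1, was higher by 0.97. Zfp36l2, which marks mRNAs for decay, fell 1.53-fold while its relative Zfp36 was higher by 0.51. Arrdc3, an arrestin-domain adaptor, fell from 6.50, 6.81 and 7.09 to 5.66, 5.81 and 5.48 (2.21-fold).

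Among transcription factors, 13 of 50 bZIP genes rose, 1 fell and 36 did not pass (8 to 11 and 0 to 2 with 1 array left out). Cebpd, a C/EBP factor of the acute phase, read 4.97, 4.84 and 5.00 with PBS and 6.50, 6.77 and 6.63 with hepcidin (3.25-fold, adjusted p 1.57e-07). Jdp2, a Jun dimerization protein, rose from 6.17, 6.09 and 6.07 to 7.60, 7.60 and 7.72, and Cebpb, Batf and Nfe2l2 (NRF2) were higher by 0.97, 0.62 and 0.43. Creb3l2 was the bZIP gene that fell, by 0.43, and it missed the threshold without PBS array 1, PBS array 3 or hepcidin array 3, at an adjusted p of up to 0.109. Of 33 NF-kB, IRF, STAT, NFAT and SMAD genes, 5 rose, 3 fell and 25 did not pass. Nfkb2 rose from 7.33, 7.05 and 7.17 to 8.74, 9.00 and 8.95 (3.28-fold) and its partner Relb from 7.15, 7.23 and 7.05 to 8.47, 8.67 and 8.64 (2.73-fold). The other subunits Rel and Rela were higher by 0.85 and 0.37. Irf4, a factor of alternative activation, fell from 5.03, 4.97 and 4.94 to 4.21, 4.56 and 4.51, near the median of all genes.

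Ets2 had the largest rise of a transcription factor, from 8.42, 8.48 and 8.61 to 10.36, 10.45 and 10.50 (3.82-fold, adjusted p 2.18e-07). Spi1, which encodes the macrophage factor PU.1, rose less, from 10.62, 10.59 and 10.60 to 10.86, 10.96 and 10.89 (1.24-fold). Its adjusted p was 0.00707, and 0.0648 when only the 6 arrays of 3 h entered the fit. Foxo3, which is active when growth factor signals are low, fell from 7.08, 7.16 and 7.13 to 6.68, 6.51 and 6.39, and Mef2a and Mef2c were lower by 0.39 and 0.55. Among 29 KLF, SP and EGR genes 1 rose and 3 fell: Klf4 fell from 7.52, 7.32 and 7.07 to 6.24, 6.47 and 6.14 (2.03-fold), Klf2 was lower by 0.74 and Klf7 rose 1.98-fold. Lbh, a developmental cofactor, had the largest fall of the class, from 8.94, 9.06 and 8.98 to 7.55, 7.77 and 7.45 (2.64-fold). Pou2f2, the B cell factor Oct-2, rose from 7.48, 7.54 and 7.49 to 8.65, 8.82 and 8.73.

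In the bHLH family 5 of 96 rose and 7 fell (4 to 5 and 4 to 5 with 1 array left out, 5 against 4 without hepcidin array 1). Tfec, a macrophage relative of MITF, rose 1.93-fold, and Npas4 fell from 5.82, 5.77 and 5.81 to 4.86, 5.10 and 4.95. Of 504 C2H2 zinc finger genes, 12 rose and 8 fell, a share of 3.97% (8 to 17 and 5 to 13 with 1 array left out, 10 against 13 without PBS array 1). Zhx2, a repressor counted here by its zinc fingers, rose from 5.49, 5.56 and 5.75 to 6.76, 6.90 and 6.98, Prdm1 (Blimp-1) was higher by 0.88, and Zfp395 fell by 0.76. Zfp935 was lower by 0.78 and missed the threshold without any 3 h array other than hepcidin array 2, at an adjusted p of up to 0.15. Of 43 nuclear receptors 1 rose and 1 fell, a share of 4.65% beside the 5.33% over all genes. Pparg, a lipid sensor, fell from 8.69, 8.89 and 8.88 to 8.40, 8.43 and 8.39 (1.33-fold). Nr1h3, the oxysterol receptor LXR alpha, was higher by 0.50, and missed the threshold without any 3 h array other than hepcidin array 1, at an adjusted p of up to 0.116.

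The largest change of any gene was in an enzyme. Acod1 (Entrez gene 16365), which makes the immunomodulatory metabolite itaconate, read 5.17, 5.44 and 4.84 on the PBS arrays and 11.12, 11.13 and 11.03 on the hepcidin arrays. The difference was 5.94 ± 0.15, 61.6-fold, at an adjusted p of 6.87e-10. Ptgs2, the inducible cyclooxygenase that starts prostaglandin synthesis, rose from 6.53, 6.70 and 6.44 to 9.54, 9.82 and 10.06 (9.5-fold). Ptges, the next enzyme towards prostaglandin E2, was higher by 1.06, while Hpgd, which inactivates prostaglandins, fell from 8.09, 7.65 and 7.33 to 6.57, 6.34 and 6.21 (2.5-fold). At 1 h the Hpgd means were 6.54 with PBS and 6.39 with hepcidin. The 3 h means were 7.69 and 6.37, so it was the PBS level that differed between the times. Hpgds, which makes prostaglandin D2, was lower by 0.58. Over all 479 lipid and eicosanoid genes 18 rose and 21 fell, a share of 8.14% beside the 5.33% over all genes. Lpin1, a phosphatidate phosphatase, fell from 7.29, 7.33 and 7.44 to 6.31, 6.30 and 6.34 (2.05-fold). Cpt1a, the gate of fatty acid oxidation in mitochondria, and Cyp27a1, a sterol hydroxylase, were lower by 0.44 and 0.68. Abhd17c, a depalmitoylating enzyme, rose 2.22-fold and Ch25h, which makes 25-hydroxycholesterol, was higher by 0.93.

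Of 364 amino acid, nucleotide and redox enzymes, 19 rose and 3 fell (15 to 18 and 1 to 4 with 1 array left out), and 342 did not pass. The share that passed, 6.04%, was near the 5.33% over all genes. Nox1, an NADPH oxidase that makes superoxide, rose from 5.56, 5.19 and 5.30 to 7.74, 7.70 and 7.61 (5.04-fold). Sod2, which removes superoxide in mitochondria, rose from 9.03, 8.97 and 8.99 to 10.71, 10.89 and 10.71 (3.42-fold, adjusted p 4.01e-08). Nos2, the inducible nitric oxide synthase, Gch1, which makes its cofactor, and Txnrd1, a thioredoxin reductase, were higher by 1.07, 0.92 and 0.54. The quinone reductase gene Nqo2 fell from 9.07, 9.06 and 9.01 to 8.67, 8.46 and 8.41. Hmox1, the haem oxygenase that frees iron from haem, showed 11.03, 11.34 and 11.33 with PBS and 11.14, 11.37 and 11.35 with hepcidin, overlapping groups (adjusted p 0.87).

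Of 222 carbohydrate and energy enzymes, Acod1 among them, 3 rose and 9 fell, a share of 5.41% beside the 5.33% over all genes. With 1 array left out 2 to 5 rose and 4 to 11 fell, with 5 falls without PBS array 2 or hepcidin array 3 and 4 without PBS array 3. Cox20, an assembly factor of cytochrome oxidase, fell 1.6-fold. Among 215 glycan and sulfate enzymes, 8 rose and 12 fell (6 to 9 and 10 to 13 with 1 array left out). Their share that passed was 9.3%, beside 5.33% over all genes. The sialyltransferase genes that passed moved both ways. St3gal1 rose from 8.71, 8.76 and 8.67 to 9.84, 9.95 and 9.91 (2.28-fold), and St3gal3 and St3gal5 were higher by 0.69 and 0.35; these add sialic acid in alpha-2,3 linkage. St6gal1, which makes the alpha-2,6 linkage, fell from 8.08, 7.95 and 7.89 to 7.09, 7.33 and 6.78 (1.88-fold). St8sia4, which builds polysialic acid, fell from 10.78, 10.73 and 10.80 to 10.06, 9.93 and 10.01 (1.71-fold). Of 389 proteases and inhibitors 11 rose and 8 fell (5 fell without PBS array 3). The share that passed, 4.88%, was under the 5.33% over all genes. The membrane-bound Mmp14 rose from 5.06, 5.08 and 5.26 to 6.41, 6.54 and 6.91 (2.8-fold), Casp4, the sensor of cytosolic lipopolysaccharide, was higher by 1.27, and the protease inhibitor gene Serpinb6b fell by 0.89.

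Of 430 ubiquitin enzymes, 15 rose and 15 fell (9 rose without PBS array 2 and 8 without hepcidin array 2). The share that passed was 6.98%, beside 5.33% over all genes. Rnf144b, a ubiquitin ligase, had the largest fall of any named gene, from 7.85, 7.85 and 7.75 to 6.20, 6.27 and 6.41 (2.87-fold, adjusted p 1.09e-07). Fbxo32, the atrophy-associated ligase atrogin-1, fell from 6.09, 6.28 and 6.26 to 5.24, 5.28 and 5.35, and Trim13, a ligase of the endoplasmic reticulum, rose from 5.56, 5.75 and 5.27 to 6.88, 7.25 and 6.92. Among 425 chromatin, DNA and RNA enzymes 15 rose and 11 fell (7 to 11 and 4 to 10 with 1 array left out, 9 against 10 without hepcidin array 2). That is a share of 6.12%, near the 5.33% over all genes. Tet2, which oxidizes methylated cytosine, rose 1.76-fold, the histone demethylase gene Kdm6b was higher by 0.69, and Ang, a secreted ribonuclease, fell 1.41-fold (adjusted p 0.008, and 0.063 with only the 6 arrays of 3 h).

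Among the genes of iron transport, Slc11a2 and Cp rose, Steap3 fell, and Slc40a1 and Tfrc did not pass. Slc40a1, the gene of ferroportin, read 8.90, 8.87 and 8.95 with PBS and 8.87, 8.67 and 8.74 with hepcidin, a difference of -0.14 ± 0.07 (adjusted p 0.324). The groups overlapped, and an mRNA level says nothing about degradation of the protein. Tfrc, the transferrin receptor that brings iron in, read 10.65, 10.99 and 11.07 and 10.60, 10.79 and 10.84, also with overlap (adjusted p 0.555). Slc11a2, the divalent metal transporter DMT1, rose from 7.78, 7.77 and 7.68 to 9.11, 9.11 and 9.17 (2.61-fold, adjusted p 2.70e-06). Slc39a14, which imports zinc and iron, was higher by 0.62. Cp, the ferroxidase ceruloplasmin, rose from 3.74, 4.01 and 4.06 to 5.30, 5.03 and 5.54 (at least 1.54-fold), and Steap3, an endosomal iron reductase, fell by 0.46.

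Solute carriers, the largest transporter family, gave 21 rises and 18 falls among 418 (18 against 20 without hepcidin array 2). Their share that passed was 9.33%, beside 5.33% over all genes. Slc7a11, which exchanges cystine for glutamate, rose from 5.96, 5.63 and 5.45 to 8.82, 8.30 and 8.75 (7.73-fold, adjusted p 6.45e-07). Slco3a1, an organic anion transporter, rose from 5.52, 5.53 and 5.27 to 6.96, 6.89 and 7.14 (2.93-fold), and Slc2a6, of the glucose transporter family, was higher by 1.29. The falls were smaller. Slc5a3, which takes up myo-inositol, fell from 8.16, 7.84 and 7.93 to 7.36, 6.67 and 6.68 (2.1-fold), Slc46a3, a lysosomal carrier, by 0.70, the sulfate carrier Slc26a11 by 0.63 and the sugar phosphate carrier Slc37a2 by 0.58. Among 51 ABC transporters 3 rose and 4 fell (2 against 1 without PBS array 3). Abcd2, which moves very long fatty acids into peroxisomes, fell from 9.20, 9.06 and 9.10 to 7.81, 7.82 and 7.83 (2.46-fold) with little spread, and Abcc1, an efflux pump for glutathione conjugates, rose 1.45-fold. Among 343 channels 5 rose and 2 fell (2 to 5 and 1 to 3 with 1 array left out). Among 63 ATPase genes 1 rose, Atp2b4 (1.82-fold), a calcium pump. The shares that passed were 2.04% and 1.59%, beside 5.33% over all genes. At a mean of 6 or more they were 10.9% and 2.78%, beside 11.5% of all genes at that level. Aqp9, a water and glycerol channel, was higher by 0.62 and missed the threshold without PBS array 2, PBS array 3, hepcidin array 1 or hepcidin array 3, at an adjusted p of up to 0.117. Tpcn1, an endolysosomal channel, was lower by 0.52 and missed it without any 3 h array other than hepcidin array 1, at up to 0.113.

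Outside the 6 classes and the olfactory, vomeronasal and taste receptor genes, 345 of 16418 genes rose and 342 fell. Their share that passed was 4.18%, beside 5.33% over all genes. Ifi205, an interferon-inducible gene, rose from 4.33, 4.53 and 4.42 to 6.11, 7.21 and 7.31, with hepcidin array 1 below the other two. Saa3, an acute phase protein, rose from 6.24, 7.23 and 7.09 to 8.53, 9.22 and 8.91, the widest PBS spread among the genes named here. The paired membrane proteins Tmem176b and Tmem176a rose 4.49-fold and 3.58-fold. Gbp5, a guanylate-binding protein of host defence, rose from 3.94, 4.05 and 3.61 to 5.29, 6.11 and 5.79 (at least 2.08-fold), and the recycling protein gene Ehd1 rose 4.02-fold. Flrt3, H2-M2 and Bcl2a1b were higher by 1.83, 1.86 and 1.79; Bcl2a1b, a survival gene, has near-identical copies that may share its probes. The falls included Fam214a, from 8.25, 8.28 and 8.30 to 6.66, 6.87 and 6.87 (2.78-fold), and the sorting nexin gene Snx24, from 7.57, 7.82 and 7.94 to 6.27, 6.83 and 6.36 (2.45-fold). Snx30, Tmem273, Kctd12b, Tmem86a, Klhl6 and Cttnbp2nl were lower by 0.88, 1.08, 1.04, 0.90, 0.86 and 0.84. Sh2d1b1 was lower by 1.04 at an adjusted p of 0.0352, and missed the threshold without any 3 h array other than hepcidin array 1, at up to 0.14.

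Of 534 microRNA genes 3 rose and 6 fell (1.69%), and of 3056 long noncoding RNA genes 34 rose and 23 fell (1.87%). Both shares were under the 5.33% over all genes and the 6.07% of protein-coding genes. The largest change of a microRNA gene was that of Mir146, which is matched to miR-146a by gene ID and is known as a brake on NF-kB signalling. It read 3.53, 3.47 and 3.53 with PBS and 5.66, 5.97 and 5.63 with hepcidin (at least 2.11-fold, adjusted p 2.96e-07). Mir721 had the largest fall, from 6.70, 6.94 and 6.73 to 5.99, 5.76 and 5.96 (1.85-fold), followed by Mir5104 (-0.83 on the log2 scale). The level of Mir5104 was not set beside that of the background genes, and its call with an array left out is not given. The probes measure RNA from the gene and cannot tell the arms of a hairpin or the mature form from its precursor. The mature sequences of the largest rise and fall in RefSeq are shown on GRCm38.p6, minus strand, with the seed (bases 2 to 8) in capitals:
miR-146a-5p, chr11:43374435-43374456: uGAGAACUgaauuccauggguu
miR-146a-3p, chr11:43374399-43374420: cCUGUGAAauucaguucuucag
miR-721, chr5:136375777-136375797: cAGUGCAAuuaaaagggggaa
The 9 microRNA genes that passed have 14 mature sequences with 14 different seeds.

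The 3 h values were set beside those at 1 h, which come from other arrays of hepcidin and PBS. Of the 692 genes that rose at 3 h, 111 (16%) also rose at 1 h, which is 85.4% of the 130 rises at 1 h. Of the 624 that fell, 4 also fell at 1 h, among 8 falls in all; at 1 h 0.559% of genes passed. The difference between the effects was tested directly and passed for 254 genes (1.03%), 129 upwards and 125 downwards. That count was 141 without PBS array 2 of 3 h and 145 without PBS array 3. Among the genes that rose at 3 h, the rise was larger than at 1 h for 127 and smaller for 9 by that test. Among those that fell, the fall was larger for 107 and smaller for 0. Since these genes were chosen for their change at 3 h, a larger value there is favoured by the choice. Acod1 had risen by 3.66 at 1 h and stood at 5.94 at 3 h, and Gpr84 at 2.62 and 4.29. Slc7a11, Fpr2 and Tarm1 differed by 0.35, 0.64 and 0.30 at 1 h and by 2.95, 3.41 and 2.69 at 3 h. Tnf and Nfkbia went the other way, with 3.60 and 2.39 at 1 h and 2.67 and 1.84 at 3 h. Rnf144b, Abcd2 and Lbh, lower at 3 h, had differed by -0.18, -0.15 and -0.11 at 1 h. Other genes that fell had values further below 0 at 1 h, with -0.67 for Lpar6, -0.58 for Arrdc3, -0.51 for Rgs2, -0.48 for Slc5a3 and -0.46 for Nlrp1b. A larger gap at 3 h can come from either group. Slc5a3 had means of 7.24 (1 h) and 7.98 (3 h) with PBS, and 6.76 and 6.9 with hepcidin. Npas4 had 5.18 and 5.80, and 5.03 and 4.97, and Creb3l2 6.61 and 7.08, and 6.66 and 6.66. In Rnf144b the PBS means were 8.01 and 7.82, and the hepcidin means 7.83 and 6.29. How many falls were of either kind was not counted.

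**Figure D5:**
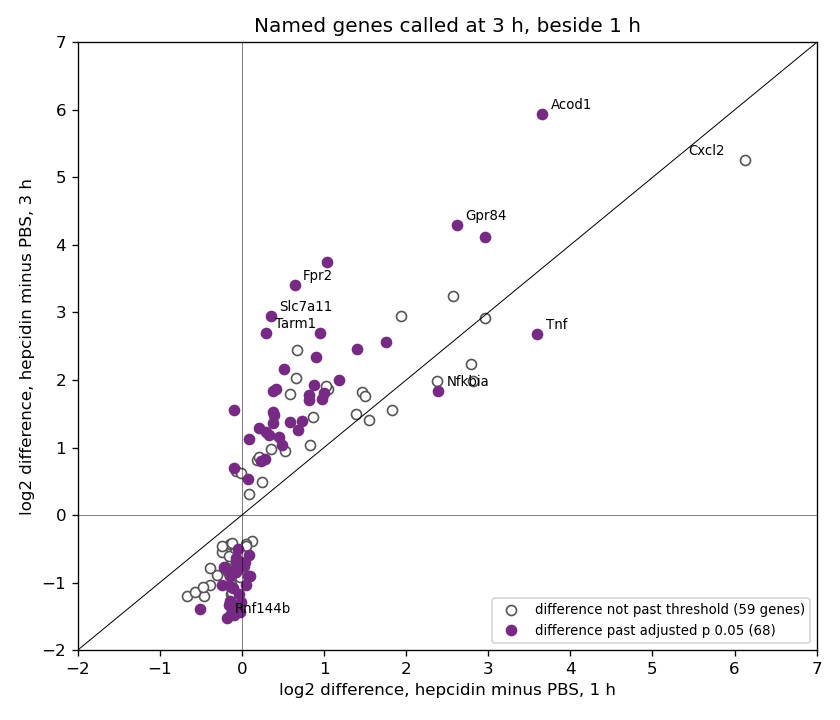
Log2 difference between hepcidin and PBS at 3 h (y axis) against 1 h (x axis) for the 127 named genes that passed at 3 h; the diagonal marks equal values. Filled points are the 68 whose difference between times passed an adjusted p of 0.05, and Lpar6 and Arrdc3 are among the falls at 3 h that lie below 0 at 1 h, at -0.67 and -0.58.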

How the data were processed

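RNA of 12 macrophage samples in 4 groups of 3 was measured on whole-transcript Affymetrix arrays (per the labels). The authors deposited 1 log2 value per probe set, 25429 in all; RMA and Partek are named, without versions, per the submitters' processing notes, and the log base was taken from RMA and the range. Genome build and the role of each tool are not given in the sources used here. Of the probe sets, 24675 carried 1 gene symbol each and were tested; 754 were unnamed.

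Differences were fitted with limma 3.58.1 in R 4.3.3 (lmFit, eBayes) as 4 group means over the 12 arrays, with 8 residual and 4.11 prior degrees of freedom and no filter. P-values had a Benjamini-Hochberg adjustment over all genes, with a threshold of 0.05. The procedure was also run on simulated data, drawn independently for each array with the spread of this fit. Such data hold no effects shared within an array, so the run does not measure the error rate of the real calls.

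Classes are symbol rules for protein-coding genes, and a gene belongs to the first that matches. Members, classes and lists were chosen with earlier results of these data known, and after the fit 4 wrong assignments were corrected and 3 family names changed. Named are, past the threshold and without overlap, the 5 largest rises and falls of each class, the largest of each family, 6 each way at a level of 10 or more, 10 each way outside the classes, and 8 genes whatever their result. Gene models, clones and pseudogenes were counted and not named. Other class members with a value were chosen after their values were seen, from those that passed whichever 3 h array was left out. Promoter and microRNA sequences and gene types are RefSeq's (GRCm38.p6). Alternatives are given in the closing section. The number of arrays limits the precision.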

Additional observations from a re-analysis of the deposited data

Results flagged for a closer look

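Of the 127 named genes that passed at 3 h, 68 had an effect of hepcidin at 3 h that differed from the effect at 1 h by limma's test of the difference, with adjusted p-values from 0.000277 to 0.0486. The values given are the 3 h effect minus the 1 h effect on the log2 scale, so a negative value means a larger fall or a smaller rise at 3 h. The genes were named for their change at 3 h, which favours larger values there: 66 of the 68 had the larger change at 3 h, and Tnf and Nfkbia the smaller.

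Among secreted ligands the value was 2.71 for Cxcl3, 1.16 for Il1b, 0.79 for Vegfc, 0.58 for Ccl3, 0.56 for Cxcl16, -0.72 for Dkk2, -0.92 for Tnf and -1.41 for Angptl4. Among receptors it was 2.77 for Fpr2, 2.39 for Tarm1, 1.74 for Fas, 1.68 for Gpr84, 1.06 for Clec4e, 1.04 for Tnfrsf1b, 0.81 for Icam1 and 0.57 for Cd14. The receptors with larger falls gave -0.46 for Itga6, -0.73 for P2ry6, -0.76 for Cd28, -1.12 for Gpr183 and -1.34 for P2ry1. Signalling regulators gave 0.80 for Traf1, 0.55 for Mapkapk2, -0.55 for Nfkbia, -0.78 for Nek6, -0.88 for Rgs2, -0.91 for Rasgrp3, -1.13 for Map2k6 and -1.18 for Arhgap25. Transcription factors gave 1.15 for Jdp2, 1.08 for Zhx2, 1.06 for Ets2, 0.94 for Pou2f2, 0.88 for Cebpd, 0.73 for Nfkb2, -0.67 for Npas4, -0.68 for Foxo3, -0.78 for Zfp395 and -1.29 for Lbh.

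Enzymes that rose gave 2.28 for Acod1, 1.43 for Nox1, 1.10 for Mmp14, 0.96 for Sod2, 0.85 for St3gal1 and 0.70 for Abhd17c, and those that fell gave -0.56 for St8sia4, -1.01 for St6gal1, -1.09 for Lpin1 and -1.34 for Rnf144b. Transporters gave 2.60 for Slc7a11, 1.65 for Slco3a1, 0.98 for Cp, 0.79 for Slc31a2, 0.66 for Slc11a2, 0.46 for Abcc1, -0.56 for Slc26a11, -0.62 for Slc46a3 and -1.16 for Abcd2. Outside the classes the value was 1.65 for Tmem176b, 1.46 for Tmem176a, 1.45 for Gbp5, 0.83 for Ehd1, -0.74 for Snx30, -0.81 for Kctd12b, -0.97 for Tmem86a, -0.98 for Tmem273, -1.28 for Snx24 and -1.37 for Fam214a.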

How the results depend on the processing

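The counts of rises and falls stayed within 1.5 times their values (692 and 624) under the trended and robust prior, the restriction to genes above the median mean level, renewed quantile normalization, median centring, array weights and the inclusion of unnamed probe sets. With only the 6 arrays of 3 h in the fit they were 443 and 362, with falls of 21 transcription factors, 50 enzymes and 55 signalling regulators and rises of 59 enzymes. The trended and robust prior gave 41 falls of transporters, and genes above the median level gave 54 falls of transcription factors and 46 of transporters. With 1 array of 3 h left out, the ranges were 483 to 689 rises and 354 to 551 falls in all. For falls they were 21 to 36 transcription factors, 50 to 77 enzymes, 17 to 28 transporters and 51 to 78 signalling regulators, and for rises 15 to 22 ligands. The test of the difference between 3 h and 1 h (254 genes) gave 433 with the trended and robust prior, 412 above the median level and 141 to 234 with 1 array of 3 h left out; its alternatives were chosen after seeing the data. Of the 127 named genes that passed, 117 passed whichever 3 h array was left out, and 0 changed direction under any alternative. The causes were not tested.

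With the replicate number as a block, 802 genes rose and 813 fell, and falls of ligands numbered 9. The numbers are not known to pair the samples: deviations of same-numbered hepcidin and PBS arrays correlated at 0.21, 0.15 and 0.06, although each array correlated best with its own number. The block changed the call of Zfp935 among the named genes that passed.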
